A study of Mus musculus with 4 samples.

Results

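Genes that mark neuroblasts and immature neurons were examined by single-nucleus RNA sequencing of mouse brain in a stroke model, permanent MCAO (the middle cerebral artery is closed and stays closed). The 10 genes were Dcx, Sox11, Sox4, Igfbpl1, Stmn1, Stmn2, Cd24a, Dlx1, Dlx2 and Ccnd2. They were chosen by symbol, 1 row each of the 46983 genes counted, and all 10 had counts in every library. All mice were male C57Black/6 animals 3 months old. The control group was a sham control library, and the other groups were libraries taken 1 day, 3 days and 7 days after MCAO. Each library pooled 3 hemispheres and each group held 1 library, so animals cannot be told apart, no difference has a replicate check, no p-value was computed, and every interval is a 95% interval that covers counting error only.

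The surgical protocol in the labels gives intact cortex as the control, but the series design gives forebrain hemispheres at all times. The sham library held 332 nuclei with the markers of striatal projection neurons, which are cells outside the cortex. The breakdown of nuclei by time point that accompanies the study places the larger post-injury library at a different time than the deposited labels do. The doubt concerns the day 3 and day 7 libraries, whose labels may be exchanged, so each day 3 and day 7 value and comparison below could belong to the other time. Values follow the labels as deposited.

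Neuroblasts are young neurons that have left the progenitor pool but have not yet matured. In the adult mouse forebrain they arise in the subventricular zone along the lateral ventricle and migrate in chains through the rostral migratory stream to the olfactory bulb, where they become GABAergic interneurons, and a separate population arises in the dentate gyrus. They are identified by proteins of the growing cytoskeleton, by transcription factors of the Sox and Dlx families, and, while they still divide, by cyclins. After stroke, neuroblasts of the subventricular zone are known to move toward the injured striatum. Most of these genes are also used by other cells, such as mature interneurons, oligodendrocyte precursors or ependymal cells, so a single transcript does not mark a neuroblast.

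The 10 genes fall into 5 roles. Dcx (doublecortin) binds and stabilises microtubules, and Stmn1 and Stmn2 (stathmins) bind tubulin dimers. Sox4 and Sox11 are related transcription factors of early neuronal differentiation, and Dlx1 and Dlx2 are homeodomain factors that direct the GABAergic interneuron fate. Ccnd2 (cyclin D2) drives progenitors through the first phase of the cell cycle. Igfbpl1 is a secreted protein related to the binding proteins of insulin-like growth factors, and Cd24a is a surface glycoprotein of migrating neuroblasts that is also known from ciliated ependymal cells.

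In the GENCODE vM21 annotation of GRCm38, Dcx (ENSMUSG00000031285.14) lies at chrX:143855842-143933311 on the minus strand and Stmn2 (ENSMUSG00000027500.10) at chr3:8509360-8561606 on the plus strand. Sox11 lies at chr12:27334264-27342574 and Sox4 at chr13:28948919-28953713, both on the minus strand. Dlx1 at chr2:71528113-71533981 on the plus strand and Dlx2 at chr2:71543408-71546754 on the minus strand are neighbours. Igfbpl1 lies at chr4:45809468-45826923 (minus), Stmn1 at chr4:134468320-134473843 (plus), Cd24a at chr10:43578284-43584265 (plus) and Ccnd2 at chr6:127125162-127152193 (minus). All 10 are protein-coding. Sox4, Dlx1 and Ccnd2 overlap genes of the opposite strand (Gm26735, Dlx1as, and Gm43126 with 9330179D12Rik) and Stmn1 holds the small gene Gm23634 on its own strand. Introns were counted, and whether strand was used in counting was not given in the sources used here, so reads of these 4 genes and their partners may be mixed.

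The promoter windows of Sox11 and Dlx2 are shown as those of 1 gene from each transcription factor family among the 10, the families whose levels by class are compared below. Each is the 250 bases upstream of the RefSeq start on GRCm38.p6, read 5′ to 3′ on the gene's strand, and neither overlaps an annotated exon. Of the 10 genes, 5 had an entry (Dcx, Sox11, Sox4, Dlx1 and Dlx2). Capitals mark a match to 1 of 3 motifs searched on both strands, the E-box CAGCTG bound by proneural factors, the homeodomain core TAATTA and the Sox core ACAAAG.
Sox11, chr12:27342719-27342968, minus strand: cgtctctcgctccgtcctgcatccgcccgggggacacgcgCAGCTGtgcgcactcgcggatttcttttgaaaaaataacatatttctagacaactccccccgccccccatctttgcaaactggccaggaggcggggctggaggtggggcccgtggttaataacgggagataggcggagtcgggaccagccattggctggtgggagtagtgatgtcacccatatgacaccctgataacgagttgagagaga
Dlx2, chr2:71546755-71547004, minus strand: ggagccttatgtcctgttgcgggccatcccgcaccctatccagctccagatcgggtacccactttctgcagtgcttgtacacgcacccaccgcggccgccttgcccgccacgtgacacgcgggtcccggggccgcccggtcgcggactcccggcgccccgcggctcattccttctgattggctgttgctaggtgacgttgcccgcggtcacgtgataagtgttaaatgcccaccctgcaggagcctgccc
The Sox11 window holds 1 E-box, 210 bases upstream of the start, and none of the 3 motifs occurs in the Dlx2 window. Over the 32851 windows of the same length, 13% hold the E-box, 4.84% the homeodomain core and 16.5% the Sox core. The windows are rich in G and C, 58% for Sox11 and 66.4% for Dlx2. A match is a run of letters and not a measured binding site.

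The libraries held 23285489 to 42963698 UMIs (unique molecular identifiers, each standing for 1 captured RNA molecule) over all barcodes. Barcodes with more than 1000 UMIs were taken as nuclei, which left 8721 nuclei after removal of 188 likely doublets, 2186 in sham control and 1191, 3622 and 1722 at day 1, day 3 and day 7. Their median depth ran from 4518.5 UMIs at day 3 to 8519 at day 1. No pair of libraries shared more than 3 nucleus barcodes. Clusters were built without the 10 genes and without cell-cycle genes, and were named from marker lists that hold none of the 10. Classes named this way carry "-like", since they rest on RNA markers alone. A group led by mitochondrial transcripts held 2.10% of the sham control nuclei and 12.01%, 13.2% and 7.67% of those at day 1, day 3 and day 7, and a group led by heat-shock genes held 1.51%, 5.54%, 1.66% and 0.871%. Their part in the results below was not tested.

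One cluster of 39 nuclei (0.447% of all) was neuroblast-like. Of its 12 naming markers, 11 had UMIs, among them Sp8, Sp9, Dlx5 and Dlx6, transcription factors of olfactory bulb interneurons, Prokr2, a receptor that guides neuroblasts in the rostral migratory stream, and St8sia2, which makes polysialic acid. The remaining marker, Tubb3, had 0 UMIs in all nuclei, and it shares its strand and position with Gm20388. The summed marker level was 2340 CPM (counts per 1e6 UMIs of the nuclei summed) in sham control and 2922, 2566 and 1445 CPM at day 1, day 3 and day 7, against 473 in GABAergic neuron-like nuclei over all libraries and 15.6 to 20.7 in the free RNA of empty droplets. The name rests on the markers' fold over other nuclei and not on the size of this sum, and only 3 nuclei stand behind the day 1 value. Pooled, the naming marker Dlx6os1 alone gave 1471 of the 2400 CPM of these markers. It was also among the leading genes of the GABAergic cluster led by Vip and Adarb2. The neuroblast-like cluster depended on the clustering choices. With cell-cycle genes allowed among the variable genes no cluster was named neuroblast-like, and with each library clustered alone only the day 3 library gave one, of 22 nuclei.

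Markers of other cells were also present in these nuclei. Of the GABAergic markers 10 of 11 were found, at 4748 CPM in sum, with 4272 CPM in sham control and 9436, 4582 and 2849 CPM at the 3 times, above the neuroblast marker sum in every library. Astrocyte markers (9 of 9) summed to 2294 CPM, with 3566 CPM in sham control and 5235, 1622 and 1726 CPM at the 3 times, above the neuroblast marker sum in all but the day 3 library. Pooled, oligodendrocyte markers (9 of 9) summed to 1477 CPM, oligodendrocyte precursor markers (7 of 8) to 918 and glutamatergic markers (11 of 11) to 859. The oligodendrocyte sum was 1635 CPM in sham control and 304, 1888 and 401 CPM at day 1, day 3 and day 7. The 10 markers of blood immune cells were at 0 in every library, and endothelial markers were at 0 in all but the day 3 library. Their part in the values below was not tested.

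Neuroblast-like nuclei were counted in every library. Sham control held 6 of 2186 (0.274%, interval 0.101 to 0.596%) and day 1 held 3 of 1191 (0.252%, 0.0520 to 0.734%). Day 3 held 22 of 3622 (0.607%, 0.381 to 0.918%) and day 7 held 8 of 1722 (0.465%, 0.201 to 0.913%). All 4 intervals overlapped. Relative to sham control, the day 1 share was 0.918 (0.149 to 4.30), the day 3 share 2.21 (0.870 to 6.67) and the day 7 share 1.69 (0.515 to 5.92). Over the 3 post-injury libraries 33 of 6535 nuclei were neuroblast-like, 1.84 times the sham share (0.761 to 5.37). Every one of these intervals covered 1, so at this depth neither a gain nor its absence was detectable. The day 3 interval still allows a share several times that of sham control.

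**Figure D1:**
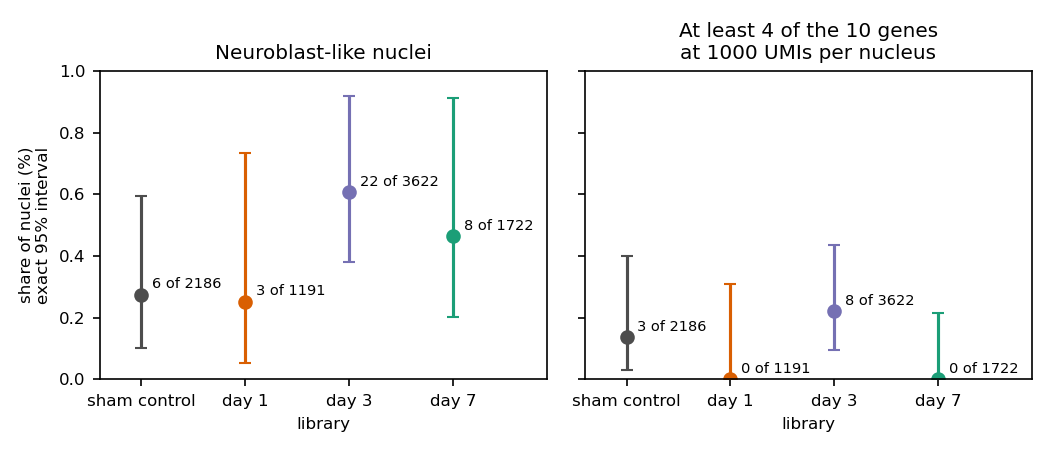
Share of nuclei in percent (y axis) in each library (x axis) that were neuroblast-like or that carried at least 4 of the 10 genes after thinning to 1000 UMIs, with exact 95% binomial intervals as bars. The day 3 library holds the highest point of each measure (0.607% and 0.221%), and its bars overlap those of sham control.

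The 39 nuclei were shallow, with a median of 2729 UMIs (1009 to 46899), and they carried a median of 5 of the 10 genes (0 to 10). At their own depth 29 of the 39 carried at least 4 of the genes and 6 carried at most 2. One day 3 nucleus of 46899 UMIs gave 27.6% of the UMIs of the group, carried all 10 genes and all 12 genes of the cell-cycle list, and also held 5 UMIs of Pdgfra, a gene of oligodendrocyte precursors. Without this nucleus all 10 genes still lay past the 1.5-fold limit of the comparison with other nuclei, and the ratio that moved most, that of Cd24a, was 15.2 in place of 25.7. Another day 3 nucleus, of 1882 UMIs, carried 0 of the 10 genes but 15 UMIs of Meis2, a homeobox gene of olfactory bulb and striatal neurons.

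**Figure D2:**
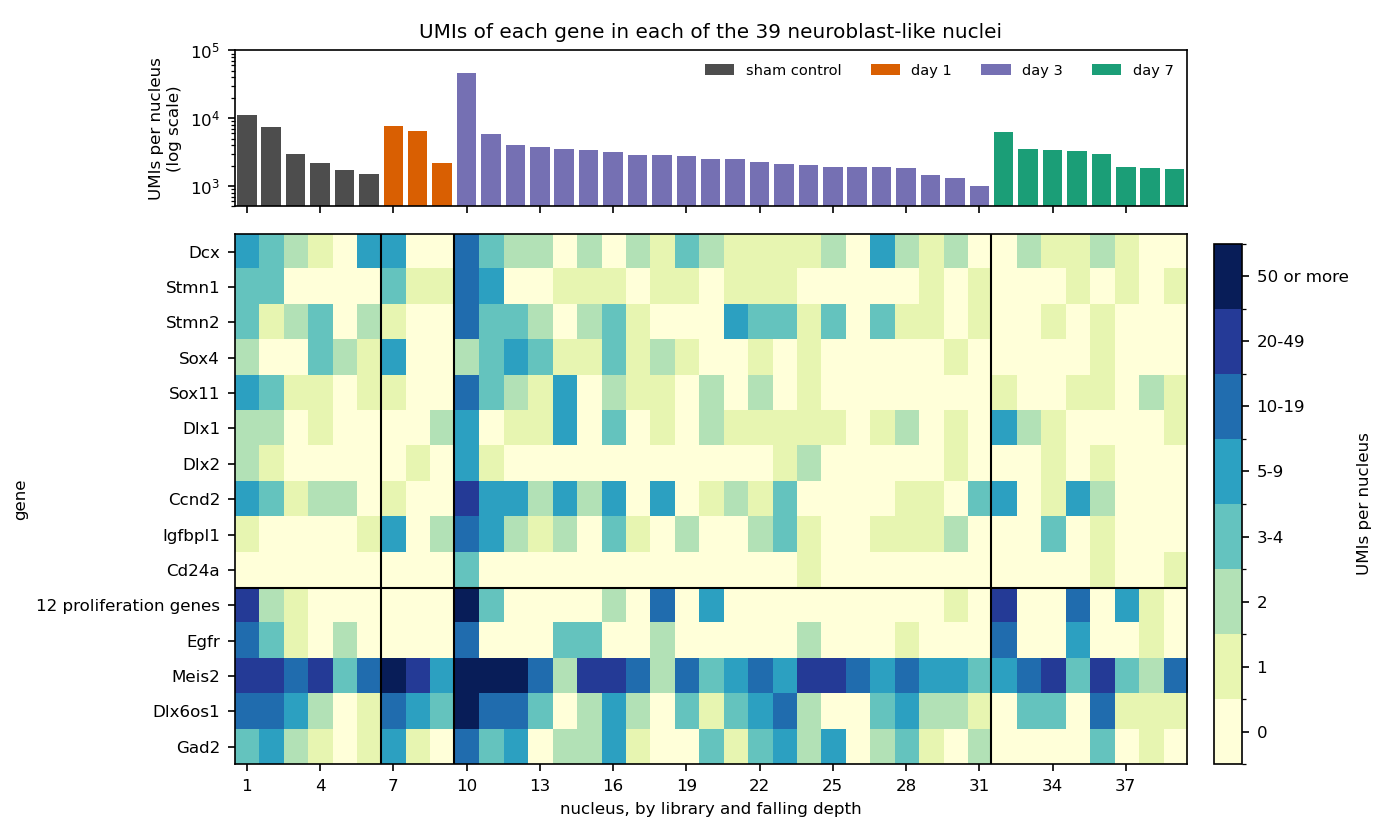
UMIs of each of the 10 genes, of 12 proliferation genes summed and of Egfr, Meis2, Dlx6os1 and Gad2 (rows, colour in steps of UMIs) in each of the 39 neuroblast-like nuclei (columns, grouped by library), with the depth of each nucleus above on a log scale. The deepest nucleus, of 46899 UMIs at day 3, carries all 10 genes, while Meis2 is present in all 39 nuclei.

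Levels in the neuroblast-like nuclei are given below in CPM for sham control, day 1, day 3 and day 7 in that order, and then set against all other nuclei of the 4 libraries. The comparison is a description, since a cluster is defined by its own nuclei, although none of the 10 genes entered the clustering. A gene was counted as higher or lower where the ratio was at least 1.5-fold, its counting interval excluded 1 and the 2 sums together held at least 20 UMIs. By that rule all 10 genes were higher in the neuroblast-like nuclei, while of the 19379 genes with enough UMIs 17.3% passed in either direction, 11.7% higher and 5.68% lower. The median ratio of the 10 genes was 16.5, and that of all genes 0.793.

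Among the cytoskeletal genes, Dcx had 19, 6, 49 and 7 UMIs in the neuroblast-like nuclei of the 4 libraries, or 706, 365, 482 and 281 CPM. Pooled, it stood at 477 CPM against 76.2 in other nuclei, a ratio of 6.25 (4.95 to 7.78). It was higher than in the other nuclei of each library. Stmn1 was at 260, 304, 246 and 120 CPM, 235 pooled against 36.4 in other nuclei (ratio 6.46, 4.60 to 8.82), and was likewise above the other nuclei in all 4 libraries. Stmn2 was at 409, 60.9, 462 and 80.3 CPM. It was above the other nuclei in 2 of the 4 libraries, sham control and day 3, and below them at day 1 and day 7, where it rested on 1 and 2 UMIs. Its pooled level of 359 CPM was 2.91 times that of other nuclei (2.22 to 3.74), the lowest ratio of the 10 genes.

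Among the transcription factors, Sox11 was at 594, 60.9, 315 and 241 CPM, 11.98 times the other nuclei when pooled (8.99 to 15.7). Sox4 was at 334, 365, 265 and 40.1 CPM, 18.01 times the other nuclei (12.9 to 24.5). Both were above the other nuclei in every library, by values that at day 1 for Sox11 and at day 7 for Sox4 rested on 1 UMI. Dlx1 was at 186, 122, 285 and 361 CPM, and its pooled 265 CPM compared with 3.49 in other nuclei (ratio 75.9, 53.8 to 105). Dlx2 was at 111, 60.9, 98.3 and 80.3 CPM, 56.2 times the other nuclei (31.0 to 95.3). Both Dlx genes were above the other nuclei in all 4 libraries, on 45 and 16 UMIs in the whole group, though Dlx1 had only 2 UMIs at day 1 and Dlx2 only 1 at day 1 and 2 at day 7.

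Ccnd2 was at 669, 60.9, 796 and 602 CPM in the neuroblast-like nuclei, 677 pooled against 45.3 in other nuclei (ratio 14.9, 12.3 to 17.98). The day 1 value rested on 1 UMI. Igfbpl1 was at 74.3, 426, 413 and 161 CPM, on 2, 7, 42 and 4 UMIs, of which the deepest nucleus held 12 at day 3. With 55 of its 256 UMIs in these 39 nuclei its ratio to the others was 106 (76.9 to 143), the highest of the 10. Both genes were above the other nuclei in all 4 libraries. Cd24a had 0, 0, 5 and 2 UMIs, so its pooled 41.2 CPM (ratio 25.7, 10.1 to 54.9) rested on 7 UMIs in 4 nuclei, and 57.1% of them came from a single nucleus. For Dlx2 and Ccnd2 the top nucleus gave 31.3% and 29.6% of the UMIs. In the free RNA of empty droplets, scaled to these nuclei, Stmn2 would make up 32.2 CPM, Stmn1 11.3 and Dcx 5.70, with each other gene under 5 CPM.

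At a fixed depth of 1000 UMIs per nucleus the same genes were detected in a larger share of neuroblast-like nuclei than of microglia-like nuclei, which should lack most of them, with the exception of Cd24a. Dcx had a UMI in 35.9% of neuroblast-like, 9.92% of glutamatergic and 2.49% of microglia-like nuclei. Ccnd2 was found in 41.0%, 3.98% and 1.10% of the same classes, and Igfbpl1 in 33.3%, 0.0424% and 1.10%. Dlx1 was found in 30.8% of neuroblast-like nuclei and in none of the thinned glutamatergic or microglia-like nuclei. Stmn2 was found in 33.3%, 14.2% and 6.91%, which is the closest of these genes to its background. Cd24a was found in none of the thinned neuroblast-like nuclei. Without thinning the shares of neuroblast-like nuclei were 74.4% for Dcx, 64.1% for Ccnd2, 61.5% for Stmn2, 59.0% for Dlx1 and 10.3% for Cd24a. The microglia-like nuclei had a median of 1797.5 UMIs and the glutamatergic nuclei 10179.5.

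Against the class nearest in fate, the GABAergic neuron-like nuclei, Dcx was 3.82 times higher in neuroblast-like nuclei (2.98 to 4.84), Dlx1 12.2 times (8.29 to 17.7), Dlx2 11.5 times (5.89 to 21.6), Ccnd2 23.0 times (17.6 to 30.1) and Igfbpl1 141 times (68.9 to 324). Stmn2 was 2.73 times higher (2.05 to 3.56). Against oligodendrocyte precursor-like nuclei, a glial class that can divide, Sox4 was 3.59 times higher (2.39 to 5.35) and Ccnd2 40.2 times (23.7 to 72.7). Dlx1 had 1 UMI in those nuclei, so its ratio of 252 has an interval from 42.9 to 10164.

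At least 4 of the 10 genes together were seen only in neuroblast-like nuclei once depth was equal. After each nucleus was thinned to 1000 UMIs, so that depth could not set the number of genes seen, 6261 of 8721 nuclei carried none of the 10 genes, 2115 carried 1 and 305 carried 2. At least 4 genes were carried by 11 nuclei (0.126%). All 11 were neuroblast-like, 11 of the 39, and 0 of the 8682 other nuclei carried 4, which allows a share of up to 0.0346%. The sham control library held 3 of them (0.137%, 0.0283 to 0.401%) and the day 3 library 8 (0.221%, 0.0954 to 0.435%). Day 1 and day 7 held 0, which allows shares of up to 0.252% and 0.174%. The day 3 share was 1.61 times that of sham control (0.386 to 9.42), which does not exclude 1. With a limit of 3 genes 40 nuclei passed, 18 of them neuroblast-like. Without thinning 653 nuclei (7.49%) carried at least 4 genes, and 350 of them were glutamatergic, so that count follows depth.

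Proliferation genes divided the neuroblast-like nuclei. Of the 39, 10 carried at least 2 of the 12 genes of the list (25.6%, 13.0 to 42.1%), 2 of 6, 0 of 3, 5 of 22 and 3 of 8 in the same order of libraries, against 1.19% of glutamatergic nuclei. The split is by gene content, the 10 nuclei had a median of 4552 UMIs and the others 2209, and the deepest nucleus is among the 10. The part of depth in the split was not tested. Ccnd2 was at 867 CPM (686 to 1080.1) in the nuclei with at least 2 proliferation genes and at 457 (319.9 to 632) in the others. Egfr, the growth factor receptor of transit-amplifying progenitors, was at 680.1 (521 to 872) and 165 CPM (87.8 to 282). Dcx lay the other way, at 384 (267 to 534) against 584 CPM (427 to 778), with overlapping intervals. Stmn2 was at 230.4 against 508 CPM, Sox4 at 143 against 381 and Meis2 at 2753 against 6458. Sox11 was at 384 (267 to 534) against 254 (155 to 392) and Stmn1 at 285 (186 to 418) against 178 CPM (97.1 to 298), higher on the proliferating side with overlapping intervals. Without the deepest nucleus the values on the proliferating side were 1017 CPM for Ccnd2, 972 for Egfr, 452 for Dcx, 226 for Stmn2, 249 for Sox4 (124 to 445, which overlaps the 257 to 543 of the others), 542 for Sox11 (347 to 807), 362 for Stmn1 and 3570 for Meis2.

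Other genes of the neuroblast programme were counted as lists, and each count below is read against the 11.7% of all genes that were higher and the 5.68% that were lower in the same comparison. Of the 13 olfactory bulb interneuron genes, 13 were higher in neuroblast-like nuclei than in the others, with a median ratio of 12.2. Examples are Sp8 (60.3-fold, on 5 UMIs in 4 nuclei), Dlx6os1 (24.1-fold, with a UMI in 32 of 39 nuclei) and Meis2 (8.74-fold, in 39 of 39). Gad2 and Gad1, which make GABA, had a UMI in 26 and 22 of the 39 nuclei. The list holds 7 of the naming markers, so its count is no independent check of the name. Of 7 dentate gyrus genes 2 were higher, Draxin (156-fold), an axon guidance factor, and Prox1 (3.48-fold), a factor of granule neurons and of some interneurons. Eomes, Tbr1 and Neurod6, factors of the glutamatergic lineage, had 0 UMIs in the 39 nuclei, but with 15 UMIs of Eomes in all other nuclei and ratio intervals up to 1.66 for Tbr1 and 1.33 for Neurod6, a lower level was not detectable at this depth.

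Of 12 cell-cycle genes 12 were higher, with a median ratio of 28.9. Top2a, which untangles DNA, was 95.3-fold higher (73.7 to 122) on 80 UMIs in 9 of the 39 nuclei. Aurkb, a mitotic kinase, was 87.8-fold (39.4 to 177), Cenpf 65.7-fold (41.2 to 101) and Cdk1 56.3-fold higher (21.5 to 125), each with UMIs in 5 nuclei. Few nuclei thus carried these levels, and without the deepest nucleus Top2a was 67.5-fold, Aurkb 97.0-fold, Cenpf 43.5-fold and Cdk1 44.4-fold higher. Of 11 progenitor genes 6 were higher, among them Pax6 (20.3-fold, 12.6 to 31.1, in 14 nuclei) and Egfr (18.1-fold, 14.1 to 22.8, at 441 CPM in 13 nuclei). The Notch ligand Dll3 (34.3-fold, 8.96 to 94.1) and Tead2 (24.9-fold, 6.58 to 67.1) rested on 4 UMIs each, and without the deepest nucleus Tead2 had 1 UMI and did not pass the limit. Sox2 was at 0 UMIs in all nuclei, where it lies inside Sox2ot on the same strand, so its level cannot be read here. The cell-cycle genes were left out of the clustering.

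Of 24 genes of migration and the immature cytoskeleton, 16 were higher and 2 lower, with a median ratio of 3.72. Dpysl3 (15.4-fold), a growth cone protein, St8sia2 (13.9-fold), Marcksl1 (11.4-fold) and Nrep (8.58-fold) were higher. The list shares Tubb3, Tubb2b, Dpysl5, Nrep and St8sia2 with the naming markers, of which the 4 with UMIs were higher by the choice of the cluster. Robo1 (0.635-fold), a Slit receptor, and Dab1 (0.351-fold), an adaptor of Reelin signalling, were lower. Of 12 genes of mature neurons 9 were lower and 1, Map2 (3.34-fold), was higher. The NMDA receptor subunit Grin2a (0.0972-fold), the kinase subunit Camk2a (0.124-fold) and the synaptic vesicle proteins Syt1 (0.207-fold) and Syp (0.290-fold) were among those lower. The relatives of the 10 genes were less uniform, with 4 of 15 higher and a median of 1.42. Dlx5 and Dlx6 are naming markers, so of these 4 only Dclk2 (6.08-fold) and Igfbp5 (5.29-fold) are not given by the name, and Dclk1, the closest relative of Dcx, was at 0.906. Of 11 genes of axon regeneration 2 were higher, Sox11, which is 1 of the 10 genes, and Jun (2.97-fold, on 8 UMIs), with a median of 1.07, so this count lay near the share over all genes.

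Outside the neuroblast-like nuclei each gene had its own distribution over classes. In the order of pooled levels the neuroblast-like group came first for all but Cd24a, with an interval clear of the next class. Dcx came next in GABAergic neuron-like nuclei (125 CPM), in a small group led by Ano1 and Myo5b (103), in other neuronal nuclei (97.1) and in glutamatergic neuron-like nuclei (93.5), and neighbouring intervals in this order overlapped. It was at 59.9 CPM in oligodendrocyte precursor-like, 41.3 in striatal projection neuron-like, 27.5 in microglia-like and 11.8 in oligodendrocyte-like nuclei, and at 0 in choroid plexus cell-like nuclei. Free RNA would give 11.7 CPM of Dcx in microglia-like and 9.88 in oligodendrocyte-like nuclei, so the latter level is close to background, against 2.42 in striatal projection neuron-like nuclei. Because the glutamatergic class is large, it held 51.7% of all Dcx UMIs (2628 of 5085).

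**Figure D3:**
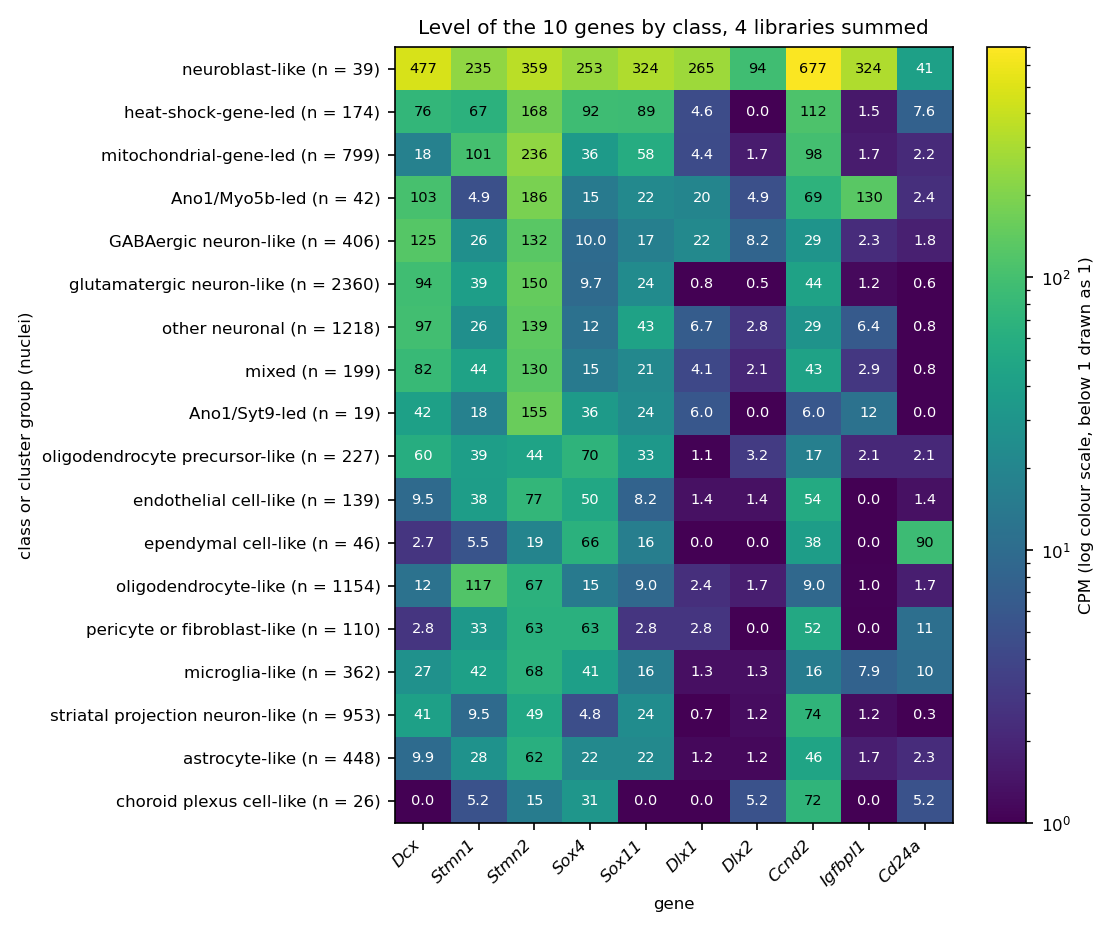
Level of each of the 10 genes (columns) in each class of nuclei (rows) in CPM pooled over the 4 libraries, as colour on a log scale. The neuroblast-like row is the highest for 9 genes, and for Cd24a the ependymal cell-like row is (90.2 CPM).

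Stmn2 was at 186 CPM in the Ano1/Myo5b-led, 150.1 in glutamatergic and 132 in GABAergic nuclei, but at 49.1 in striatal projection neuron-like nuclei, where free RNA would give 13.9, and was at 236 in the mitochondrial-gene-led group, in which free RNA would give 64.2. Its 68.1 CPM in microglia-like nuclei is read as background, since free RNA would give 66.5 there. Stmn1 had a different order, second in oligodendrocyte-like nuclei at 117 CPM (105 to 130.0), where it was 108 to 124 in all 4 libraries, and then at 101 in the mitochondrial-gene-led group. In thinned nuclei Stmn1 had a UMI in 10.7% of oligodendrocyte-like against 3.94% of glutamatergic nuclei. The intervals of these last 2 Stmn1 levels overlapped.

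Sox11 followed in the heat-shock-gene-led (88.6 CPM), mitochondrial-gene-led (58.0) and other neuronal groups (43.1), and was at 32.6 in oligodendrocyte precursor-like and 23.8 in glutamatergic nuclei. Sox4 followed in the heat-shock-gene-led group (91.7), in oligodendrocyte precursor-like (70.4), ependymal cell-like (65.6) and pericyte or fibroblast-like nuclei (63.4), and was low in GABAergic (10.0) and glutamatergic neurons (9.7). Among named classes, the next levels of Sox4 thus lay in glial, ependymal and vascular cells. Dlx1 came next in GABAergic nuclei (21.7 CPM, 31.0% of its 274 UMIs), with 40.4 CPM in the cluster led by Vip and Adarb2, and Dlx2 followed in the same class (8.18).

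Ccnd2 followed at 112 CPM in the heat-shock-gene-led and 97.8 in the mitochondrial-gene-led group. It was at 73.5 in striatal projection neuron-like nuclei, which held 23.0% of its 3091 UMIs, and glutamatergic nuclei held a further 40.1%, so most of its UMIs lay in neurons, which do not divide. Igfbpl1 stood at 130 CPM (97.2 to 170) in the 42 nuclei of the Ano1/Myo5b-led group, which held 20.7% of its UMIs against 21.5% in the neuroblast-like nuclei. The neuroblast-like level was 2.49 times that of the Ano1/Myo5b-led group (1.68 to 3.71). That group was found in all 4 libraries with 135.7, 90.1, 178 and 41.0 CPM of Igfbpl1. Cd24a was highest in ependymal cell-like nuclei at 90.2 CPM (62.1 to 127), where 33 of its 112 UMIs lay, and these nuclei had 63.6, 102, 123 and 68.0 CPM by library. The interval overlapped that of the neuroblast-like nuclei.

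Relative to sham control, few of the 10 genes differed in the sums over all nuclei. In bulk-like sums of this kind fewer cells of a type and less RNA per cell cannot be told apart. Dcx was at 89.7, 69.3, 77.3 and 69.8 CPM in sham control and at the 3 times, with ratios of 0.772, 0.862 and 0.778. Stmn2 ranged between 119.7 and 128 CPM, and Stmn1 between 33.4 and 42.6. None of the cytoskeletal genes passed the 1.5-fold limit.

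Sox11 was at 23.6, 33.0, 26.3 and 30.1 CPM, with a day 1 ratio of 1.40 (1.22 to 1.61) and a day 7 ratio of 1.28 (1.11 to 1.47). In nuclei thinned to 1000 UMIs the same ratios were 1.53 (1.01 to 2.31) and 1.53 (1.05 to 2.23), just past the limit. Sox4 was at 12.5, 17.1, 15.2 and 14.2 CPM and Ccnd2 at 41.5, 50.1, 47.2 and 50.2, with sham control lowest for both. Dlx1 was at 3.54, 3.55, 5.14 and 3.94 CPM and Dlx2 at 1.74, 2.57, 1.71 and 1.82. These values did not pass the limit.

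Igfbpl1 was at 3.36, 2.64, 5.73 and 2.77 CPM and Cd24a at 1.26, 1.58, 2.21 and 1.53, with the day 3 library highest for both. The day 3 ratio was 1.71 (1.24 to 2.38) for Igfbpl1 and 1.75 (1.03 to 3.08) for Cd24a. They were the 2 of 10 genes that passed the limit at day 3, where 8.79% of 17952 genes did so (5.78% higher and 3.01% lower). At day 1 and day 7 0 of the 10 passed, against 8.97% of genes at day 1 (5.61% higher and 3.37% lower) and 7.54% at day 7 (4.44% higher and 3.1% lower). Without the 39 neuroblast-like nuclei 0 of the 10 genes passed at any time (8.99%, 8.73% and 7.51% of genes), and the day 3 ratios were then 1.19 for Igfbpl1 (0.834 to 1.70) and 1.58 for Cd24a (0.920 to 2.80).

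**Figure D4:**
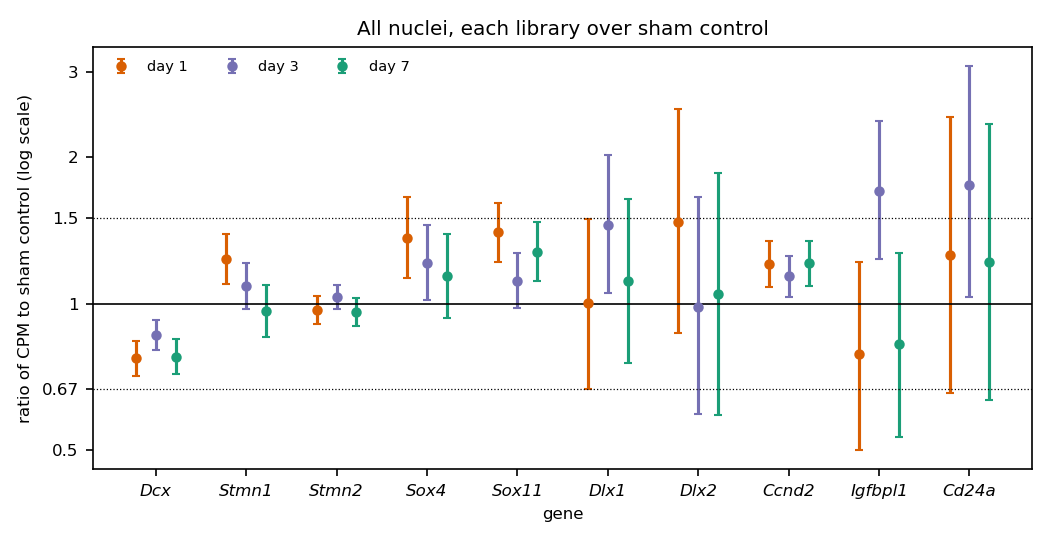
Ratio of each gene's CPM over all nuclei to sham control (log axis) at day 1, day 3 and day 7, with exact 95% counting intervals as bars and dotted lines at 1.5 and its inverse. Igfbpl1 and Cd24a at day 3 (1.71 and 1.75) are past the upper line with intervals above 1, and Dcx is below 1 at all 3 times.

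The lists were counted in the same sums, where over all genes 5.61%, 5.78% and 4.44% were higher and 3.37%, 3.01% and 3.1% lower at day 1, day 3 and day 7. The counts are descriptions. Of 12 cell-cycle genes 10 were higher at day 3, with Top2a at 5.16 times and Cenpf at 9.69 times sham control. At day 1 and day 7, 3 of the 9 with enough UMIs were higher, Top2a, Cenpf and Ccnb1 each time. Among progenitor genes Nes was higher at day 3 (2.86) and day 7 (1.67), and Btg2 was lower at day 7. Of the olfactory bulb interneuron genes 0 were higher at any time and 1, Dlx6, was lower at day 1 (0.644) and day 7 (0.637). Of 15 relatives of the 10 genes 6 were higher at day 3, the cyclins Ccnd1 (1.79) and Ccnd3 (1.53) and the binding proteins Igfbp2, Igfbp3, Igfbp5 and Igfbp7 (1.74 to 1.88). Among these relatives Igfbp3 was higher and Dlx6 and Igfbp2 lower at day 1, and Dlx6 was lower at day 7. Of 24 migration genes 3 were higher at day 3, the tubulins Tubb2b (2.83) and Tuba1a (1.65) and Marcksl1 (1.63), and at day 1 Nrep (0.520) and St8sia2 (0.660) were lower. Of 7 dentate gyrus genes Draxin (4.28), Neurod2 and Bhlhe22 (1.62 each) were higher at day 1 and Calb2 (0.616) lower, and Draxin (3.91) and Bhlhe22 (1.59) were higher at day 3. Of 10 regeneration genes with enough UMIs Jun (1.57) and Hspb1 (2.03), a small heat-shock protein, were higher at day 1. At day 3, 3 of 11 were higher, Atf3, Gal and Hspb1. At day 7 Gal was lower. None of the 12 genes of mature neurons passed the limit at any time.

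Within classes, ratios to sham control could be computed for 10 classes with at least 20 nuclei in every library, which excludes the neuroblast-like class. Of 140 ratios with enough UMIs 8 were higher and 7 lower by the same limit. Over all genes in these classes 7.7% of ratios passed, 3.63% higher and 4.07% lower. Dcx in glutamatergic neuron-like nuclei was at 126 CPM in sham control (548 nuclei, 771 UMIs) and at 79.1, 92.4 and 77.1 CPM after injury. Sham control was highest, and the interval of each post-injury library lay below it. The day 1 ratio was 0.629 (0.560 to 0.707), the day 3 ratio 0.735 (0.668 to 0.810) and the day 7 ratio 0.614 (0.546 to 0.689), so day 1 and day 7 were lower and day 3 did not reach the limit. In this class 7.8%, 5.18% and 8.75% of genes passed at the 3 times.

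Single glutamatergic clusters were uneven. Dcx passed the limit as lower in 3 of 6 clusters with enough nuclei at day 1, in 1 of 8 at day 3 and in 3 of 7 at day 7, and was higher in none. The cluster ratios ran from 0.440 to 0.976 at day 1, from 0.526 to 1.41 at day 3 and from 0.422 to 1.27 at day 7. The cluster led by Stard8, Pvrl3 and Col19a1 differed most, with Dcx at 149.9 CPM in sham control and 66.0, 78.8 and 63.3 after injury (ratios 0.440, 0.526 and 0.422). In GABAergic neuron-like nuclei Dcx was at 116, 90.2, 146 and 140.4 CPM and in other neuronal nuclei at 93.5, 92.1, 104 and 97.9, with 0 of these ratios past the limit, which 6.47%, 6.38% and 7.2% of genes passed in GABAergic nuclei and 5.91%, 5.49% and 8% in other neuronal nuclei. In striatal projection neuron-like nuclei it was at 49.6, 36.7, 37.4 and 36.0 CPM, with ratios of 0.740, 0.753 and 0.726 that also missed it (5.88%, 6.29% and 6.38% of genes passed). Of the 2 striatal clusters, the one led by Drd2, Rgs9 and Sh3rf2 passed as lower at day 1 (0.533, 0.283 to 0.944). The other, led by Ano2, Mhrt and Strip2, passed as lower at day 7 (0.631, 0.421 to 0.926). At day 3 neither passed. Whether the glutamatergic ratio differs from that of other classes was not tested.

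**Figure D5:**
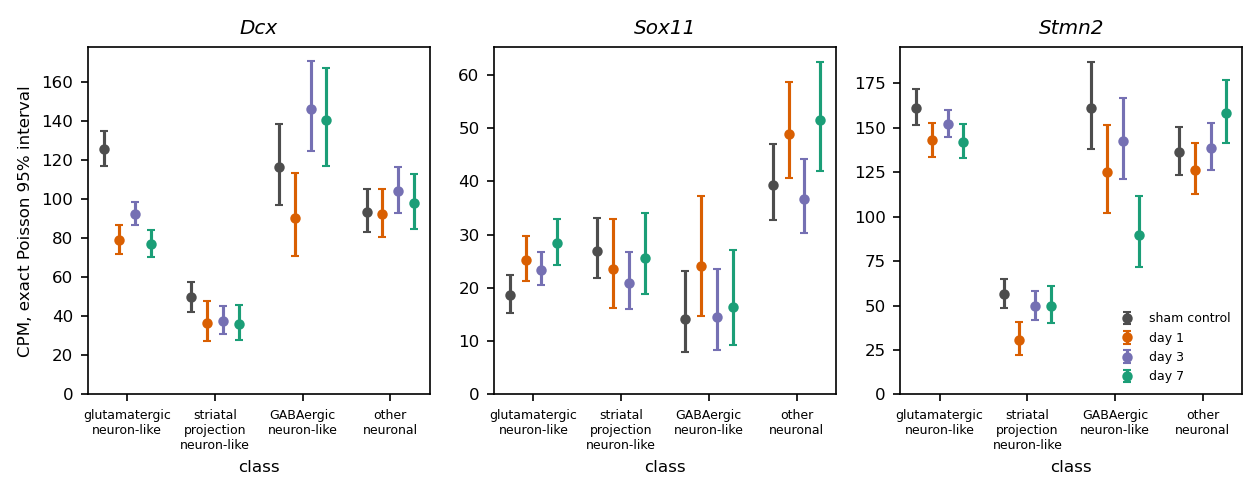
CPM of Dcx, Sox11 and Stmn2 (panels) in sham control, day 1, day 3 and day 7 (colours) for glutamatergic, striatal projection, GABAergic and other neuronal nuclei (x axis), as points with exact 95% Poisson intervals as bars. Dcx in glutamatergic nuclei is highest in sham control (126 CPM) and lies between 77.1 and 92.4 CPM after injury.

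Sox11 in glutamatergic neuron-like nuclei was at 18.6, 25.3, 23.4 and 28.4 CPM, lowest in sham control, and its day 7 ratio of 1.53 (1.20 to 1.95) passed the limit. Single clusters were uneven, with 1 of 5 higher at day 7 (ratios 0.884 to 2.20). At day 1, 2 of 5 clusters were higher and 1 lower (ratios 0.357 to 2.22), and at day 3 0 of 7 passed. In the mitochondrial-gene-led group Sox11 was at 16.2, 73.4, 58.0 and 56.4 CPM, and the day 1 ratio of 4.52 (1.14 to 39.3) rested on 27 against 2 UMIs in 46 sham nuclei. In the heat-shock-gene-led group Sox11 was at 14.0, 107, 81.7 and 32.4 CPM and Sox4 at 14.0, 119, 65.3 and 0, from 15 to 66 nuclei a library. The group held 71286 UMIs in all in sham control and 30895 at day 7. Both sham control values and the day 7 value of Sox11 thus rested on 1 UMI each. No ratio was formed there, and the group was largest at day 1.

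Stmn2 passed the limit in different directions. It was lower at day 1 in striatal projection neuron-like nuclei (56.3 to 30.5 CPM, ratio 0.541, 0.380 to 0.754, where 5.88% of genes passed) and at day 7 in GABAergic neuron-like nuclei (161 to 89.9 CPM, 0.558, 0.423 to 0.730, 7.2%). In a mixed group it was lower at day 1 (0.666, 10.1% of genes) and day 7 (0.641, 9.25%). In the mitochondrial-gene-led group it was higher at day 1 (146 to 269 CPM, 1.84, 1.11 to 3.24, 9.75%) and day 7 (1.85, 1.11 to 3.26, 9.45%). Glutamatergic nuclei were between 142 and 161 CPM. Stmn1 was lower in striatal projection neuron-like nuclei at day 7 (12.03 to 4.91 CPM, 0.408, 9 against 41 UMIs, 6.38% of genes). Of the 2 striatal clusters, the one led by Ano2, Mhrt and Strip2 passed the limit as lower in both cases. Its Stmn2 ratio at day 1 was 0.403 (0.237 to 0.650), while that of the cluster led by Drd2, Rgs9 and Sh3rf2 was 0.761 (0.459 to 1.22) and did not pass. Its Stmn1 ratio at day 7 was 0.165 (3 against 32 UMIs), and the Drd2-led cluster had too few Stmn1 UMIs for a ratio.

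Glial classes gave few calls. Ccnd2 in astrocyte-like nuclei was at 25.6, 28.2, 68.7 and 38.3 CPM, with day 3 highest and a ratio of 2.68 (1.37 to 5.73) on 48 against 11 UMIs, where 7.04% of genes passed. A cluster of 258 nuclei that scored as astrocyte, with Ccnd2 at 106 CPM, was kept out of this class because mitochondrial genes led it. Ccnd2 was also higher in GABAergic neuron-like nuclei at day 1 (2.28, 1.32 to 4.03, 6.47% of genes). In oligodendrocyte precursor-like nuclei Sox4 was at 35.4, 83.7, 85.6 and 71.9 CPM, lowest in sham control, and its day 3 ratio was 2.42 (1.07 to 6.16) on 27 against 8 UMIs (7.12% of genes). Stmn1 was higher there at day 1 (2.80, 1.04 to 8.74, 16 against 6 UMIs, 8.59% of genes). These intervals reach close to 1.

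The genes with the most similar pattern were sought by Pearson's r of log2(CPM + 10) over 50 units of class and library with at least 20 nuclei, which share libraries and cells, so r is a description. Only 1 of these units is neuroblast-like. For the sum of the 10 genes the leading genes were Islr2 (r = 0.73), Aox4 (0.70), Podxl2 (0.68), Armcx4 (0.66) and Myl6b (0.66). Dcx was most like Fam155a (0.87), Ppfia2 (0.86) and Rims1 (0.86), and Stmn2 most like Syp (0.73). Dlx1 and Dlx2 were each most like Dlx5 (0.82 and 0.83), and so was Igfbpl1 (0.84). Cd24a was most like Efcab11 (0.80) and Cfap43 (0.74), a gene of motile cilia, Sox4 most like its overlapping partner Gm26735 (0.77), and Stmn1 most like Dpysl2 (0.74). Among the 10 genes the most similar pairs were Dlx1 with Dlx2 (0.90), Igfbpl1 with Dlx2 (0.84) and Igfbpl1 with Dlx1 (0.79).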

How the data were processed

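The authors mapped droplet-based reads to GRCm38 with STAR 2.7.3a, counted exonic and intronic reads against GENCODE vM8 and collapsed molecular identifiers. The deposited values are raw UMI counts per gene and barcode, unfiltered. Barcodes with more than 1000 UMIs were taken as nuclei, and doublets by Scrublet score (0.8% per 1000 nuclei) were removed. Nuclei were clustered with scanpy 1.11.5 and leidenalg 0.10.2 under Python 3.11.15 (3000 variable genes without the 10 genes and without 193 cell-cycle genes, 30 principal components, 20 neighbours, resolution 2.0). Nuclei of clusters closest to a class other than glutamatergic, striatal projection or GABAergic neurons were pooled and clustered again. The 43 clusters were named from 14 marker lists by a score (the mean of the 5 highest log2 folds of the markers) of at least 3 for non-neuronal classes and a lead of at least 0.5. A cluster stayed unnamed where mitochondrial or heat-shock genes held 3 or more of its 10 leading genes, whatever its score, where under 3 markers were detected, or where it was shallow and no marker led it. This gave 12 named classes and 6 unnamed groups. The naming rules and the omission of cell-cycle genes were set after clusters had been seen.

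UMIs were summed per class and library, and the intervals are exact Poisson for CPM, Clopper-Pearson for shares and conditional binomial for ratios, at 95%. The limit given for a count of 0 is 3 counts of the total. Free RNA was taken from barcodes with 151 to 700 UMIs. TMM factors came from edgeR 4.0.16 in R 4.3.3, as an alternative only. Ratio and interval code was tested on simulated data. The 10 genes and all lists were chosen with earlier results of these data known. All 10 genes are named. From each list up to 4 genes with the largest ratio in neuroblast-like nuclei, or the lowest where a list was lower, are named, and other list genes were named after their values were seen. Alternatives changed the nucleus limit, the depth, the clustering, the scaling, the fold and the free RNA. Values of some single list genes are not reported here.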

Additional observations from a re-analysis of the deposited data

Results flagged for a closer look

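Stmn2 stood out because, in the same comparison with sham control, it passed the 1.5-fold limit upward in one group of nuclei and downward in others. At day 1 its ratio was 1.84 in the mitochondrial-gene-led group, 0.541 in striatal projection neuron-like nuclei and 0.666 in the mixed group. At day 7 it was 1.85 in the mitochondrial-gene-led group, 0.558 in GABAergic neuron-like nuclei and 0.641 in the mixed group. The difference between the groups of nuclei was not tested, and each group of nuclei comes from 1 library per time.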

How the results depend on the processing

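No paired analysis was possible because each group held 1 library. The count of neuroblast-like nuclei was 39, and it was 24 with nuclei over 2000 UMIs, 36 with barcodes called by an emptyDrops test, 38 with the 10 genes allowed in clustering, 36 at a lower clustering resolution and 41 with doublets kept, and these shares stayed within the intervals of the reported ones. Clustered alone, only the day 3 library gave a neuroblast-like cluster (22 nuclei). With cell-cycle genes allowed in the clustering, chosen after seeing the data, no cluster was named neuroblast-like. The share of nuclei with several genes moved with the limit. With at least 3 genes it was 0.635% at day 3 and 0.465% at day 7, with at least 5 it was 0.0552% at day 3, and in nuclei over 2000 UMIs thinned to 2000 it was 0.544% at day 3 and 0.271% at day 7. Without thinning it was 7.18% in sham control and 15.7%, 4.97% and 7.49% at day 1, day 3 and day 7. A second draw of 1000 UMIs, also added later, gave 11 nuclei again. The number of the 10 genes higher over all nuclei was 0 at day 1, 2 at day 3 and 0 at day 7. Thinned to 1000 UMIs it was 1, 0 and 1. At day 3 it was 1 with at least 100 UMIs, 0 at a fold of 2 and 0 without the neuroblast-like nuclei. TMM scaling and free RNA subtraction changed none of these counts. Within classes 2 called ratios were lost when the mean of each nucleus was used, Stmn2 in the mixed group at day 1 (0.759) and day 7 (0.706). Free RNA subtraction took 5 other ratios within classes and 25 of 180 class levels outside their counting intervals, and the mean of nuclei took 17 of 180 levels outside them. No direction of a ratio within classes was reversed. The share with at least 4 genes did reverse, from 1.61 times sham control at day 3 when thinned to 0.692 (0.556 to 0.863) without thinning. At day 1 its ratio went from 0 when thinned to 2.19 (1.76 to 2.72) without thinning. Only 3 to 22 nuclei a library stand behind the neuroblast-like values. The causes were not tested.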
